A study of Rattus norvegicus with 6 samples.

Results

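The genes described here are 10 circadian clock genes, Arntl, Clock, Per1, Per2, Per3, Cry1, Cry2, Nr1d1, Dbp and Tef, measured by RNA-Seq in the kidney inner medulla (IM) tip of control rats and of rats made diabetic with streptozotocin (STZ). They were taken as the features whose gene name was exactly the symbol, and 9 of the 10 had such a feature among the 27321 in the table. Nr1d1 was counted only together with the overlapping gene Thra as 1 merged feature, Nr1d1+Thra, so its values are given but it is not counted among the members. All animals were male Sprague-Dawley rats of 3 months. The control group received vehicle and the STZ group received STZ at 62.5 mg/kg, a toxin that kills the insulin-producing beta cells of the pancreas, both by tail vein, and tissue was taken 15 days after injection, with 3 libraries in each group. Diabetes in this model is thus one of insulin loss caused by a chemical, studied soon after onset. The hour of the day at which the rats were killed is not given in the sources used here, and neither is whether the groups were taken at the same hour. The comparison asks whether genes of opposite phase in the clock moved in opposite directions between control and STZ.

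The mammalian clock is a transcriptional loop present in most cells, the kidney included. BMAL1 (the product of Arntl) and CLOCK bind as a pair to E-box sequences and switch on the Per and Cry genes, whose proteins accumulate and then shut BMAL1 and CLOCK off. The same pair drives Nr1d1, whose product REV-ERB alpha represses Arntl through ROR elements, and Dbp and Tef, related factors that bind D-box sequences, so that Arntl and genes such as Dbp and Per peak in opposite phases. In the kidney the clock is known for daily rhythms of water and salt excretion.

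Promoter sequences of the members were searched for the elements through which the loop acts. RefSeq windows of 300 bases, from 250 bases before to 50 bases after the annotated start (assembly GRCr8, not the rn4 build of the expression table), were matched for 9 of the 10 genes, with 11 windows in all, and Cry1 was not matched. Both strands were searched for the E-box CACGTG, the D-box TTATGTAA or TTACGTAA, the ROR element TAGGTCA or TGGGTCA, and the cAMP response element TGACGTCA. The window of Arntl (listed as Bmal1; chr1:176766078-176766377, plus strand) held a ROR element 16 bases before the start. A D-box lay 192 bases before the start of Per2 (chr9:99496944-99497243, minus strand) and an E-box 198 bases before the start of Tef (chr7:115206577-115206876, plus strand). One of the Nr1d1 windows also held an E-box, 191 bases before the start. The window of Dbp (chr1:105312006-105312305, plus strand) held none of these letters, and neither did those of Clock, Per1, Per3 or Cry2. Of 33469 rat promoter windows of the same length, 6.42% held the E-box, 1.01% the D-box, 6.60% the ROR element and 1.83% the cAMP response element. A match is given as a description and not as a bound site. The windows of Arntl, Per2 and Tef are printed for their matches and that of Dbp because it had the smallest p of the members, all 5′ to 3′ in the direction of the gene, with the matched element in capitals. No window held more than 1 match.
Arntl: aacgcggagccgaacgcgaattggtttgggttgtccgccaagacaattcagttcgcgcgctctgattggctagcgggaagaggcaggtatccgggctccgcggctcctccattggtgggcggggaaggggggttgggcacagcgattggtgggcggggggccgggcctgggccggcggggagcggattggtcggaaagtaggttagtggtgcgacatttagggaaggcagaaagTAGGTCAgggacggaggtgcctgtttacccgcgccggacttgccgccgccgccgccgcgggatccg
Dbp: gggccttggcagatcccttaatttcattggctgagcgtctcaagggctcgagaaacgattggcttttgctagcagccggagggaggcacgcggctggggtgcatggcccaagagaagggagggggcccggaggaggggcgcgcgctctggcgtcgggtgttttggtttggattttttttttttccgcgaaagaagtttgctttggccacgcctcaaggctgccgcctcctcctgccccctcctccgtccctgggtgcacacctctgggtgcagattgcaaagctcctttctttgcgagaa
Per2: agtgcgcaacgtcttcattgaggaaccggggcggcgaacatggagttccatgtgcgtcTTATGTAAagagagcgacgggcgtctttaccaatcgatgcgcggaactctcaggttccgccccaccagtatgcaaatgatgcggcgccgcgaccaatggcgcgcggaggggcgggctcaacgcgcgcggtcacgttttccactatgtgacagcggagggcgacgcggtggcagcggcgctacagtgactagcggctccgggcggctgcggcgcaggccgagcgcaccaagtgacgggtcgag
Tef: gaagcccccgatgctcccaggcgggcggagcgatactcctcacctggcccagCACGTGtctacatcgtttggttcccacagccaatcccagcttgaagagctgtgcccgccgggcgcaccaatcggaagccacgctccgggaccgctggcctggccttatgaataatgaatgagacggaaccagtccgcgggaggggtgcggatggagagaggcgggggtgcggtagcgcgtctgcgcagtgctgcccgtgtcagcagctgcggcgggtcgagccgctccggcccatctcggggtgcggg

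The deposited values are normalized counts, reads per gene divided by a size factor for each library, and rest on 3412311 to 5575171 reads on genes per library, taking the smallest step in each library as 1 read. The 3 control libraries shared sequencing lane 3 and the STZ libraries were on lanes 7, 6 and 8, so lane and diabetes cannot be told apart. As a floor for detection, the 95th percentile of 835 olfactory receptor genes, which the kidney tip hardly uses, was taken in each library. It was 2.05, 6.33 and 10.02 normalized counts in control replicates 1 to 3 and 1.86, 5.93 and 9.03 in STZ replicates 1 to 3. The floor thus rose with the replicate number in both groups. Every member stood above this floor in all 6 libraries except Per1, which did so in 3 of 6. Fold changes are given on the scale of log2(normalized count + 1) with their standard errors (SE), from limma, and p-values were adjusted by Benjamini-Hochberg over 13486 features with a mean of at least 5. Among these, 283 (2.1%) had an adjusted p under 0.05, with 1.17% higher and 0.927% lower in STZ. None of the 9 members passed that threshold in either direction. At an unadjusted p under 0.05 the share was 14.7% of all features and 2 of 9 members, Arntl and Dbp. Groups did not overlap, with every STZ library above every control library, for 10.1% of features and 2 members (Dbp and Per1), and the reverse held for 10.3% of features and 1 member (Arntl). With 3 against 3 libraries an exact permutation test of a single gene cannot go below 0.1. In whole tissue, fewer cells of a type and less RNA per cell cannot be told apart.

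**Figure D1:**
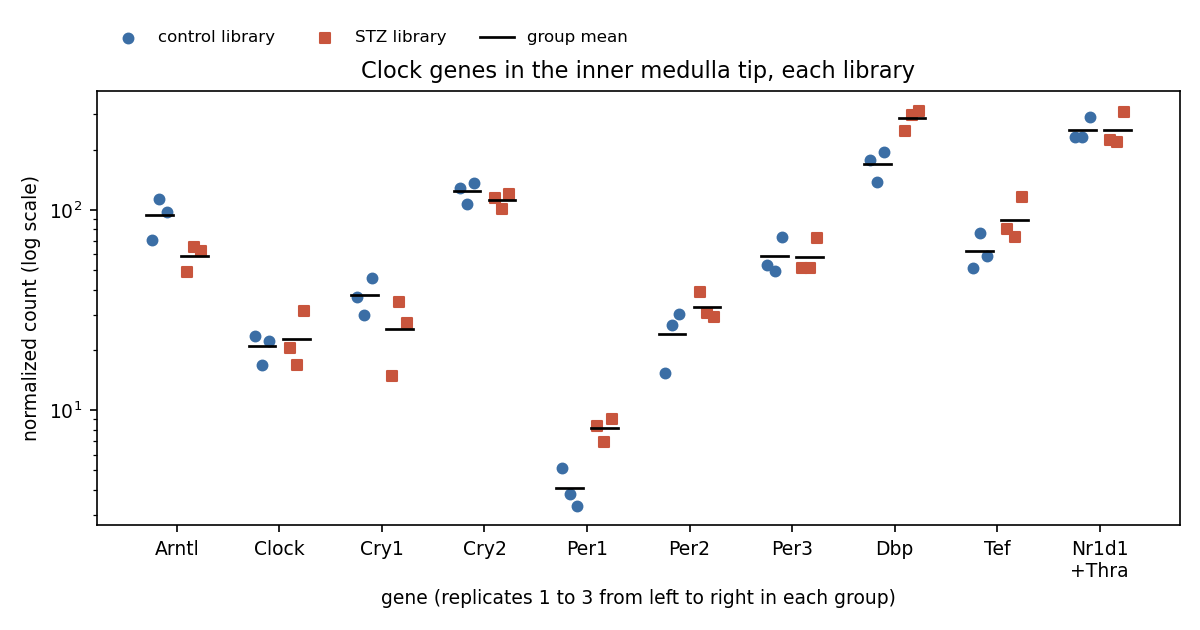
Normalized counts of the 9 members and of the merged Nr1d1+Thra feature in each library, on a log scale; circles are control libraries, squares STZ libraries and bars the group means. The groups are separate for Arntl (lower in STZ), Dbp and Per1 (both higher in STZ) and overlap for the other genes.

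Arntl, the gene of the clock's central activator BMAL1 (rn4 chr1:171062180-171162422), had fewer reads in the STZ tips. Its normalized counts were 70.7, 113 and 98.0 in the control libraries and 49.2, 65.3 and 62.2 in the STZ libraries. The lowest control value was above the highest STZ value. The means were 93.9 ± 21.4 (SD, n = 3) and 58.9 ± 8.54 (SD, n = 3), a ratio of STZ to control of 0.628. The log2 fold change was -0.65 (SE 0.24, 95% interval -1.18 to -0.11), with an unadjusted p from limma of 0.0216 and an adjusted p of 0.227. A difference of this kind was thus seen without correction and did not hold over all features tested.

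Clock, the partner of BMAL1 (chr14:34218465-34258054), did not follow Arntl. It gave 23.6, 16.8 and 22.3 normalized counts in control and 20.4, 16.8 and 31.1 in STZ. The control values lay almost wholly within the range of the STZ values, and the log2 fold change was 0.09 (SE 0.33, interval -0.65 to 0.83, adjusted p = 0.955). Npas2, which is no member but a paralog of Clock that can pair with BMAL1 in its place, had 39.0, 20.6 and 51.2 normalized counts in control and 85.4, 90.0 and 69.3 in STZ. All STZ libraries lay above all control libraries, in the direction opposite to Arntl, although both genes belong to the same arm of the textbook clock. The log2 fold change of Npas2 was 1.21 (SE 0.32), with an adjusted p of 0.0862. It passed the threshold in 1 of 16 alternatives, without control replicate 3 (1.48, adjusted p = 0.0314), and over all of them the value ran from 0.85 (without control replicate 2, adjusted p = 0.254) to 1.48 and the adjusted p up to 0.385. Within libraries the ratio of Npas2 to Clock counts was 1.65, 1.23 and 2.3 in control and 4.18, 5.35 and 2.23 in STZ. STZ replicate 3, with its higher Clock count, fell back into the control range.

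Cry1 and Cry2 encode the cryptochromes, repressors that hold BMAL1 and CLOCK inactive. Cry1, whose peak lags behind that of the Per genes (chr7:20643878-20709215), gave 36.9, 29.7 and 45.6 normalized counts in control and 14.9, 34.6 and 27.1 in STZ. STZ replicate 1 was the lowest of the 6 libraries and STZ replicate 2 was inside the control range. The log2 fold change was -0.59 (SE 0.34, interval -1.35 to 0.16, adjusted p = 0.478). Cry2 (chr3:76800938-76830893), whose rhythm is usually shallow, gave 129, 107 and 136 against 114, 101 and 120 normalized counts. Its groups overlapped, it varied least among the 9 members, with a range over 6 libraries of 0.43 on the log2 scale, and STZ differed from control by -0.14 on the log2 scale (SE 0.20, adjusted p = 0.851). Cry1 over Cry2 was 0.286, 0.279 and 0.336 in control and 0.130, 0.343 and 0.225 in STZ. This ratio was lowest in STZ replicate 1 and highest in STZ replicate 2, so the STZ spread covered that of the controls.

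The Period genes, the other repressors of the loop, gave 3 different pictures. Per1 (chr10:55859850-55868747), which also responds quickly to glucocorticoids and cAMP, was measured with few reads. Its normalized counts were 5.13, 3.81 and 3.34 in control and 8.36, 6.92 and 9.03 in STZ. If the smallest step in a library is 1 read, these are 5, 5 and 3 reads in control and 9, 7 and 9 in STZ, which could not be checked for STZ replicates 2 and 3. The groups did not overlap, but at this low level the interval of the log2 fold change of 0.85 (SE 0.57) ran from -0.42 to 2.11, with an adjusted p of 0.572. Per2 (chr9:90645341-90687509) had 15.4, 26.7 and 30.1 normalized counts in control and 39.0, 30.7 and 29.1 in STZ. The overlap came from control replicate 3, which lay above STZ replicate 3, and the log2 fold change was 0.48 (SE 0.32, interval -0.22 to 1.18, adjusted p = 0.562). Per3 (chr5:168152692-168187442) had 53.3, 49.6 and 73.5 against 51.1, 51.4 and 72.3 normalized counts. In both groups replicate 3 was the highest, and the log2 fold change was -0.01 (SE 0.25, interval -0.56 to 0.54, adjusted p = 0.994).

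Dbp and Tef are PAR bZIP factors that carry the clock's output to other genes through D-boxes. Dbp (chr1:96173572-96178484), among the most rhythmic transcripts of peripheral tissues, gave the smallest p of the members. It had 178, 137 and 194 normalized counts in control and 248, 299 and 313 in STZ. The highest control library was below the lowest STZ library. The means were 170 ± 29.2 (SD, n = 3) and 287 ± 34.3 (SD, n = 3), a ratio of 1.69. The log2 fold change was 0.76 (SE 0.20, interval 0.32 to 1.20) with an unadjusted p of 0.00314 and an adjusted p of 0.0879 by limma, and 3.57% of all features tested had a p at or under that of Dbp. A joint feature named for Dbp and its neighbour Sphk2, which spans both genes, held 1.03 normalized counts in 1 control library and 0 in the other 5 libraries, so hardly any reads were set aside to it. Tef (chr7:120153819-120179980) had 51.3, 76.3 and 59.0 normalized counts in control and 79.9, 73.2 and 115 in STZ. STZ replicate 2 was below control replicate 2, and the log2 fold change was 0.51 (SE 0.25, interval -0.04 to 1.06, adjusted p = 0.387).

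The merged feature Nr1d1+Thra (chr10:87526259-87547976) holds REV-ERB alpha, the repressor of Arntl, and the thyroid hormone receptor alpha, which are transcribed from opposite strands and overlap at their ends. Reads of the pair cannot be told apart in this table. It gave 231, 231 and 291 normalized counts in control and 225, 218 and 307 in STZ, with a log2 fold change of -0.01 (SE 0.20, interval -0.46 to 0.44, adjusted p = 0.988). Replicate 3 was the highest library of both groups, as for Per3.

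**Figure D2:**
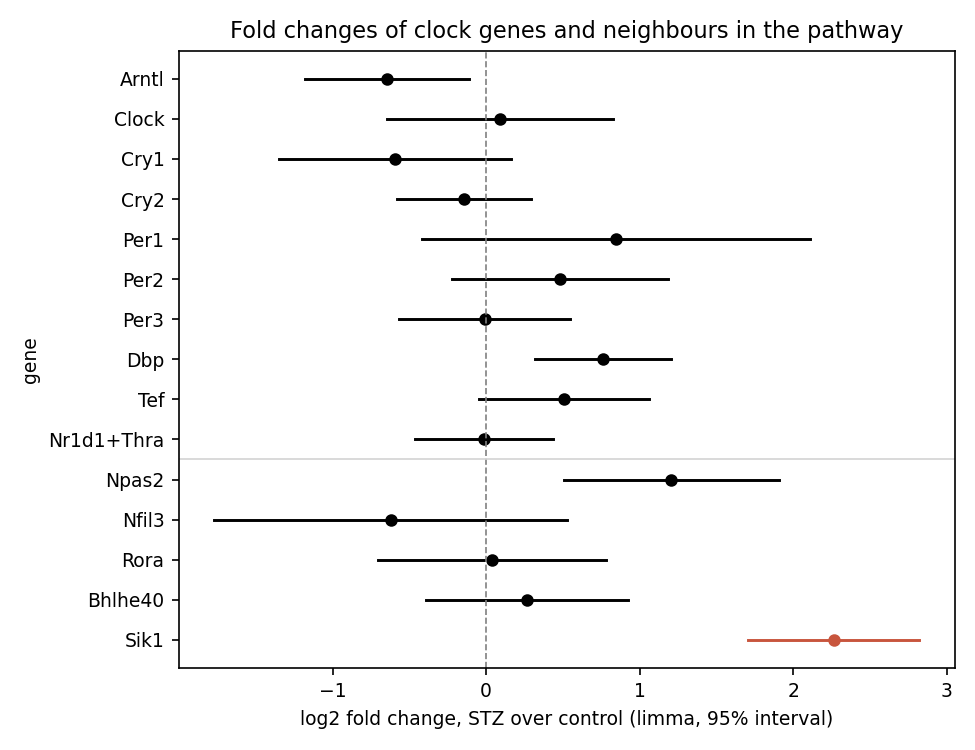
Log2 fold change of STZ over control for the members, Nr1d1+Thra and, below the grey line, related genes; points are limma estimates and bars 95% intervals. Arntl, Dbp and Npas2 have intervals that leave out 0 without correction, and Sik1, in red, is the one gene shown with an adjusted p under 0.05 (0.00154).

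Over the 9 members, 5 fold changes were positive and 4 negative, with a median of 0.09. Over all features tested 50.5% were positive and the median was 0.01 on the same scale, and the median of the members lay close to it. Arranged by phase they were split. In the Dbp arm the fold changes of Per1, Dbp, Tef and Per2 ran from 0.48 to 0.85 and that of Per3 was -0.01, whereas in the Arntl arm Arntl and Cry1 had -0.65 and -0.59 and Clock 0.09. None of these passed the adjusted threshold, and several depended in size on 1 library. Cry1 went to -0.26 without STZ replicate 1, Per2 to 0.20 without control replicate 1 and Tef to 0.31 without STZ replicate 3.

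The levels of each arm were also averaged within each library. The mean log2(normalized count + 1) of Arntl, Clock and Cry1 was 5.34, 5.31 and 5.57 in control and 4.69, 5.12 and 5.27 in STZ. That of Per1, Per2, Per3, Dbp and Tef was 5.12, 5.22 and 5.36 in control and 5.71, 5.62 and 5.92 in STZ. All STZ libraries lay below all control libraries in the Arntl arm and above them in the Dbp arm. The margin in the Arntl arm was narrow. Its lowest control value, 5.31, and its highest STZ value, 5.27, were closer than the SD of either group (0.14 and 0.30). Of the genes in that arm Arntl alone separated the groups, whereas Clock and Cry1 overlapped. In the Dbp arm Dbp and Per1 separated them and Per2, Per3 and Tef overlapped. The difference, Dbp arm minus Arntl arm, was -0.22, -0.09 and -0.21 in control and 1.02, 0.50 and 0.65 in STZ, with means of -0.17 ± 0.074 and 0.73 ± 0.27 (SD, n = 3 each). It was higher in every STZ library than in every control library, and the means were 0.90 apart on the log2 scale. Per1, above the olfactory receptor floor in 3 of 6 libraries, had the same weight in the Dbp arm as the other genes. Without Per1 the means were 0.82 apart. The level of the difference depends on the lengths and abundances of the genes averaged. Its sign therefore has no meaning, and only its differences between libraries can be read. The arms were set from textbook phases with earlier results of these libraries known, so the difference is a description and carries no p. Without Arntl and Dbp, the members with the smallest p, the same difference was -0.40, 0.20 and -0.24 in control and 0.94, 0.32 and 0.42 in STZ. The groups were still separate, with a smaller gap, and their means were 0.71 apart. The fall of the Arntl arm depended on its membership. With Npas2 added, as chosen after seeing the data, the Arntl arm had means of 5.34, 5.09 and 5.60 in control and 5.12, 5.47 and 5.48 in STZ, and the groups overlapped. The difference between the arms was then -0.22, 0.13 and -0.24 in control and 0.59, 0.16 and 0.43 in STZ, with group means 0.50 apart. It stayed higher in every STZ library, by a margin between control replicate 2 and STZ replicate 2 that was smaller than the spread within either group.

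Dbp and Arntl, the members with the smallest p, were also set against each other. Each already separated the groups, in opposite directions, so their ratio had to separate them too and adds no support. The ratio of Dbp to Arntl normalized counts within a library was 2.52, 1.22 and 1.98 in control and 5.04, 4.58 and 5.03 in STZ. It does not depend on the size factor of the library, and its level includes the lengths of the genes, so only its differences between libraries can be read. The mean was 1.91 ± 0.66 in control and 4.88 ± 0.27 in STZ (SD, n = 3 each), 2.56 times as high, and the STZ libraries were closer to each other than the controls were.

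**Figure D3:**
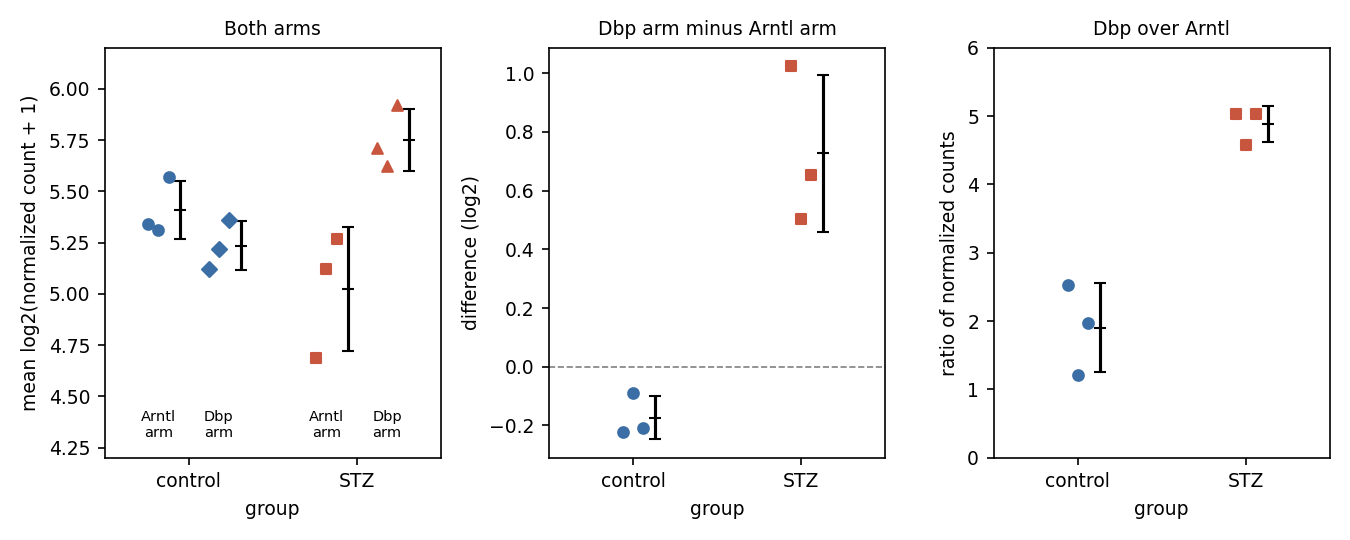
Left, mean log2(normalized count + 1) of the Arntl arm (Arntl, Clock, Cry1) and of the Dbp arm (Per1, Per2, Per3, Dbp, Tef) in each library; centre, their difference; right, the ratio of Dbp to Arntl normalized counts. Points are libraries and bars the mean ± SD of 3; the difference lies between -0.22 and -0.09 in control and between 0.50 and 1.02 in STZ.

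Libraries of a group did not deviate alike across the members. Arntl was highest in control replicate 2, at 0.61 above its mean over the 6 libraries on the log2 scale, and Dbp was lowest in the same library, at -0.67. At the other end Cry1 and Arntl were lowest in STZ replicate 1, at -0.96 and -0.57, where Per2 was highest, at 0.49. Dbp, Tef, Per1 and Clock were highest in STZ replicate 3, which is thus not the library with the lowest Arntl arm. Among controls Per2 varied most, with a range of 0.92 on the log2 scale, and among STZ libraries Cry1, with 1.17.

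**Figure D4:**
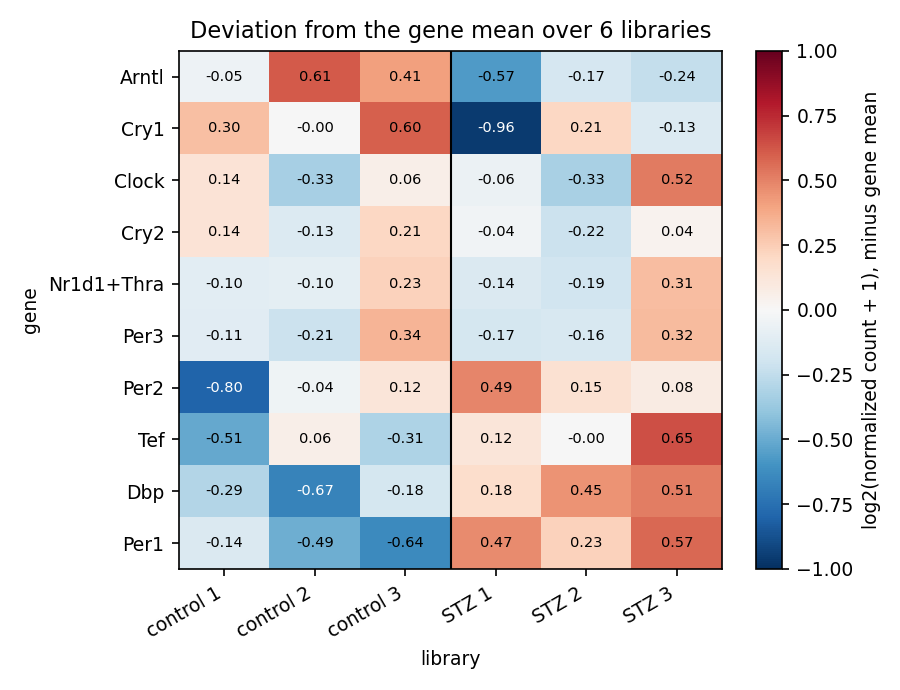
Deviation of each gene from its own mean over the 6 libraries, in log2(normalized count + 1), with genes in rows and libraries in columns; red is above and blue below the mean. Arntl is highest in control replicate 2 (0.61) and lowest in STZ replicate 1 (-0.57), while Per1 and Dbp are below their means in every control library and above them in every STZ library.

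Other genes of the loop were few in the table. Nfil3, a repressor that competes with Dbp at D-boxes and peaks in the opposite phase, had 10.3, 7.63 and 10.02 normalized counts in control and 5.57, 7.91 and 4.02 in STZ. The fitted log2 fold change came to -0.62 with an SE of 0.52 and an adjusted p of 0.675, and STZ replicate 2 was above control replicate 2. Nfil3 passed the olfactory receptor floor in 4 of 6 libraries. Rora, the activator that shares ROR elements with REV-ERB alpha, had a log2 fold change of 0.04 (adjusted p = 0.98), and Bhlhe40, a repressor at E-boxes, of 0.26 (adjusted p = 0.795). Rorb and Ciart were under the mean of 5 normalized counts and were not tested. Rorb was measured at 2.05, 0.763 and 1.11 in control and 10.2, 10.9 and 4.02 in STZ, and passed the olfactory receptor floor in 2 libraries. Ciart was measured at 8.20, 2.29 and 2.23 in control and 5.57, 1.98 and 8.03 in STZ. Its groups overlapped, and it also passed the floor in 2 libraries. Nr1d2, Hlf, Bhlhe41, Arntl2, Timeless and Tipin were not analysed here.

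The enzymes that set the pace of the loop by modifying PER and CRY proteins or by degrading them showed no called change. Of 17 kinases, phosphatases and ubiquitin ligases on the list, 15 were tested, 13 had a positive and 2 a negative log2 fold change, and the median was 0.20. The values ran from -0.41 for Csnk2a1, a subunit of casein kinase 2 (adjusted p = 0.425), to 0.50 for Ppp1cb, a catalytic subunit of protein phosphatase 1 (adjusted p = 0.221), and 1 had an unadjusted p under 0.05. Of 14 output genes tested, 8 had a positive value, the median was 0.02 and none was called, with 3 at an unadjusted p under 0.05. Their extremes were the vasoconstrictor peptide gene Edn1, at -1.01 (SE 0.84, adjusted p = 0.672), and the water channel gene Aqp2, at 0.84 (SE 0.29, adjusted p = 0.18). Edn1 had 57.4, 36.6 and 69.0 normalized counts in control and 13.9, 6.92 and 158 in STZ. STZ replicate 3 alone was above the controls, and without it the log2 fold change was -2.301 with an adjusted p of 0.0332, whereas without STZ replicate 2 it was -0.14 with an adjusted p of 0.996.

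Glucocorticoids and cAMP can both reset the clock in peripheral tissues and act on Per1 directly. Of 12 glucocorticoid target genes tested, 9 had a positive value, the median was 0.27 and none was called, with 2 at an unadjusted p under 0.05. The 12 include the member Per1 itself, at 0.85, and Pdk4, at 0.60, which is also among the output genes. The extremes were Sult1a1, a sulfotransferase gene, at 0.92 (adjusted p = 0.118), and the metallothionein gene Mt2A, at -1.09 (adjusted p = 0.0712). With single libraries left out, Sult1a1 passed only without control replicate 1 (adjusted p = 0.0225, against up to 0.353 without the others) and Mt2A only without control replicate 3 (0.0189, against up to 0.227). Fkbp5 and Tsc22d3, which are widely used readouts of the glucocorticoid receptor, had log2 fold changes of 0.46 (adjusted p = 0.449) and -0.44 (adjusted p = 0.438). The groups did not overlap for either gene, with Fkbp5 higher and Tsc22d3 lower in STZ. Such separation held for 10.1% of all features upward and 10.3% downward, and neither gene passed the test. Both genes were named after their values were seen, and glucocorticoid input was not tested. Of 9 cAMP and immediate early genes tested, 7 had a positive value, the median was 0.26 and 1 was called. This was Sik1, a kinase induced by cAMP that restrains the transcriptional response to it, with 238, 140 and 180 normalized counts in control and 1106, 952 and 640 in STZ. The lowest STZ library was far above the highest control, and Sik1 rose by 2.26 on the log2 scale (SE 0.25, adjusted p = 0.00154). Its adjusted p was 0.0941 with no filter on low values and 0.0594 without the trend in the variance. The lowest value on that list was -0.66 for the stress factor Atf3 (adjusted p = 0.689).

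**Figure D5:**
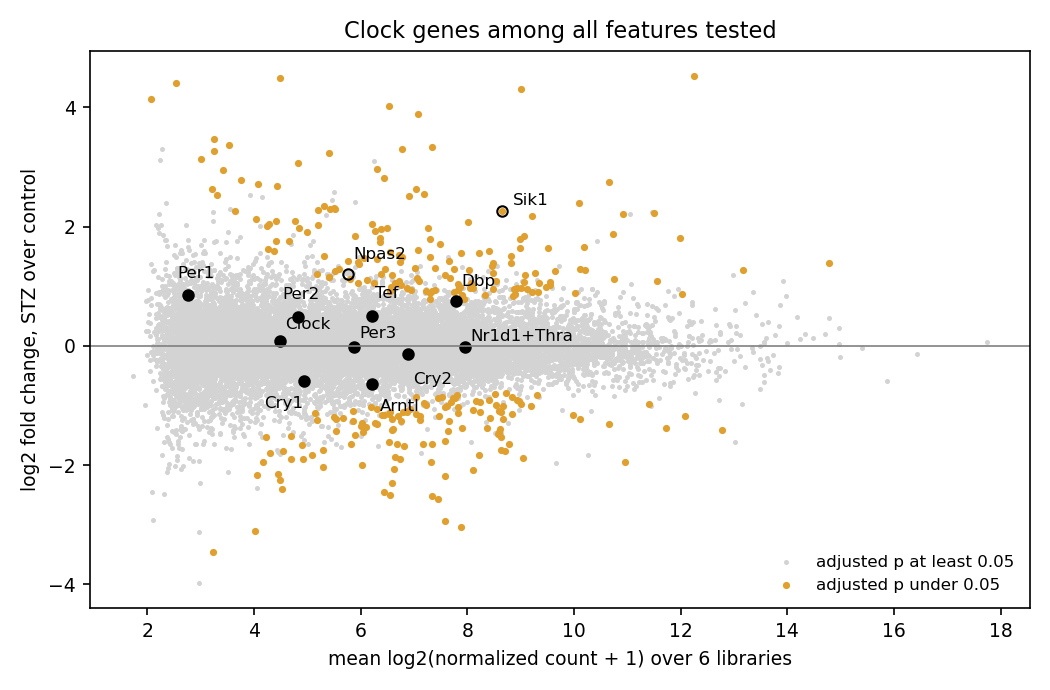
Log2 fold change of STZ over control against the mean log2(normalized count + 1) over 6 libraries for the 13486 features tested; orange points have an adjusted p under 0.05 (283), grey points do not. Black points are the members and Nr1d1+Thra, all among the grey features, and open circles mark Npas2 and Sik1, of which Sik1 is called.

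Sums of some cell type markers differed between the groups. Principal cell markers, which define the collecting duct of the tip, summed to 33053 to 55197 normalized counts in control and 42924 to 82250 in STZ. Fxyd4 made up much of this sum, and each of the 6 had counts in all libraries, Avpr2 in a merged feature. With limma 0 of 6 were called and 3 had an unadjusted p under 0.05. Of these, Aqp2 (0.84) and Aqp3 (0.91) were higher in STZ and Hsd11b2 (-0.83) was lower, so they did not move together. Intercalated cell markers summed to 475 to 775 in control and 176 to 241 in STZ (3 of 4 tested called lower), and thick ascending limb markers to 1099 to 1886 and 210 to 597 (2 of 3 called lower). Urothelium markers summed to 85.4 to 132 in control and 440 to 517 in STZ (2 of 5 called higher), and interstitial and smooth muscle markers to 868 to 1129 and 1697 to 1999 (2 of 5 called higher). The urothelium sum rose mostly through Upk3a (means 35.3 and 344), and the log2 fold changes ran from 0.04 for Upk1a to 3.30 for Upk3a. The interstitial sum rose through Pdgfra (1.03) and Tagln (1.34), whereas Col1a1, Pdgfrb and Des had 0.05, -0.16 and -0.23. The intercalated, thick ascending limb, urothelium and interstitial sums each separated the groups as Arntl and Dbp did, and their part in the clock gene values was not tested. Endothelial markers summed to 1803 to 2611 and 1563 to 1987 (1 of 4 called lower), leukocyte markers to 311 to 502 and 354 to 401 (0 of 5) and proximal tubule markers to 146 to 376 and 170 to 219 (0 of 4). No marker found in the table was at 0 in all libraries.

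The features with the pattern most like that of Arntl over the 6 libraries, among 8872 with a mean of at least 20 that are not merged or joint features of several genes, were Med20, Usp18 and RT1-DMa, with Pearson r of 0.991, 0.989 and 0.986 and Spearman rho of 1, 0.943 and 1. Those most like Dbp were Ppp1r12c, Sostdc1 and C2cd2, each with an r of 0.992 and with rho of 0.943, 0.943 and 1. Sostdc1 had 2240, 1579 and 2905 normalized counts in control and 5744, 8802 and 8673 in STZ, and Med20 had 36.9, 54.9 and 46.7 in control and 25.1, 31.7 and 29.1 in STZ. The points of each correlation are the same 6 libraries, which fall into 2 groups, and the values are given as a description.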

How the data were processed

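RNA was extracted from the terminal part of the IM of control and STZ rats (3 libraries each), made into cDNA with a SMARTer PCR kit and sequenced on a HiSeq2000. Per the labels and the study's methods, the authors aligned reads with STAR 2.3.1t to rn4, counted them over Ensembl RGSC3.4 genes and used DESeq 1.16.0. The counting program, its use of strand and its treatment of overlapping genes are not given in the sources used here. The deposited values are a signal, counts per feature divided by a size factor for each library. In every library 100% of values were whole multiples of 1 step within 0.01, and the steps ran from 0.763 to 1.11. PCR copies were not marked by molecular identifiers, so reads are not independent molecules. Overlapping genes share 527 merged features, of which Nr1d1+Thra is one.

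Values were taken as log2(normalized count + 1) and tested with limma 3.58.1 in R 4.3.3, with a trend in the prior variance, no covariates, a mean of at least 5 over 6 libraries and Benjamini-Hochberg adjustment over 13486 features with a threshold of 0.05. Groups were taken from the sample titles. The labels do not state that libraries of a group are separate animals, so p-values measure only the spread between these libraries. Named genes were all members, other clock genes whatever their values, and from each list the called genes and both extremes; Rorb, Fkbp5 and Tsc22d3 were added after their values were seen. Another clock gene covered by this rule is not reported here. The members and lists were chosen with earlier results of these data known. Alternatives were other pseudocounts, minimum means, scalings and limma settings, a replicate block, other arm members and leaving out each library.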

Additional observations from a re-analysis of the deposited data

How the results depend on the processing

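No member was called under any of 16 alternatives, with Per1 tested in 15 of them, since a minimum mean of 20 left it out. Dbp kept a positive log2 fold change (0.61 to 0.86, adjusted p from 0.05001 to 0.321, the highest without control replicate 2), and Arntl a negative one (-0.84 to -0.50, adjusted p from 0.108 to 0.574). Clock, Per3 and Nr1d1+Thra, all near 0, changed sign when single libraries were left out, over ranges of -0.15 to 0.28, -0.17 to 0.16 and -0.17 to 0.10. The number of features called was 283, and 98 with no filter, 501 with quantile normalization, 31 without the variance trend and 86 to 341 when single libraries were left out. Of the other listed genes (other clock, kinase and ligase, output, glucocorticoid and cAMP lists) 1 was called, Sik1 of the cAMP list. With Mt2A of the glucocorticoid list it was 2 at a minimum mean of 20, with equal library totals and with quantile normalization. The count was 0 with no filter (Sik1 adjusted p = 0.0941) and 0 without the trend (0.0594). It was 1 to 3 when single libraries were left out. Same-numbered libraries correlated in their deviations at 0.395, -0.0612 and 0.323 over 9315 features. The labels do not state a pairing, so the main fit took none, although the olfactory receptor floor rose with the replicate number in both groups. Whether same-numbered libraries share a batch was not tested. With a replicate block 561 features, 0 members and 2 other listed genes were called, with Dbp at an adjusted p of 0.05001. The arm difference of 0.90 stayed positive under all 18 of its alternatives, from 0.50 with Npas2 and 0.63 with Npas2 and Nfil3 in the Arntl arm to 1.41 for Dbp against Arntl alone, and from 0.75 to 1.01 when single libraries were left out. Its sign could not change with a library left out, since every STZ library already lay above every control library. Nor could it for Dbp against Arntl alone, since each gene separated the groups, in opposite directions. Alternatives with other arm members, apart from leaving out Cry1 or Per1 with Per2, were chosen after seeing the data. Count tests with edgeR and DESeq2 were not run, since the recovered read steps of 2 libraries were too near 1 to be checked. The low values of Per1, 3.34 to 9.03, limit what can be said of it. The causes of these changes were not tested.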
